A study of Mus musculus with 8 samples.

Results

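A set of 9 receptor genes of the autonomic transmitters, of vasopressin and oxytocin and of galanin were followed through purified mouse islet cells. The members were listed by symbol: Adra2a, Adra2b, Adra2c, Adrb1, Chrm3, Chrm4, Avpr1b, Oxtr and Galr1, which are 9 of the 46959 entries of the expression table. RNA was sequenced from pancreatic islet cells of adult mice that carried 3 transgenes, a nuclear mCherry driven by the Ins1 promoter (Ins1-H2b-mCherry), which reports insulin gene activity, a Cre recombinase under glucagon gene control (Gcg-cre) and a floxed YFP allele, which Cre switches on for good in cells of alpha descent. Cells were sorted into 3 groups: transdifferentiated cells with both labels (2 libraries, replicate 1 from males and replicate 2 from females), alpha cells with YFP (3 libraries, replicates 1 and 2 male and replicate 3 female) and beta cells with mCherry (3 libraries, replicates 1 and 2 female and replicate 3 male). Each library came from islets of 10 to 12 animals pooled by sex, which were cultured overnight in 5.5 mM glucose before sorting. The alpha label depends on where and how completely the Gcg-cre allele acted. The design text also speaks of bitransgenic females without saying which libraries they gave. Replicates are described as separate groups of animals, but beta replicates 1 and 2, and alpha replicates 1 and 2, share a title number, so the spread behind the p-values may be partly technical.

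All of these genes encode receptors with 7 membrane passages that signal through G proteins. Alpha-2 adrenergic receptors (Adra2a, Adra2b, Adra2c) bind adrenaline and noradrenaline and couple to Gi/o, which lowers cyclic AMP. Activation of the subtype encoded by Adra2a suppresses insulin release from beta cells. The beta-1 adrenergic receptor (Adrb1) binds the same amines and couples to Gs, which raises cyclic AMP. The muscarinic receptors of acetylcholine split by coupling: the M3 receptor (Chrm3) couples to Gq/11, which acts through phospholipase C and calcium release and raises insulin secretion, and the M4 receptor (Chrm4) couples to Gi/o. The vasopressin V1b receptor (Avpr1b) and the oxytocin receptor (Oxtr) couple to Gq/11, and both peptides are known to stimulate glucagon release. The galanin receptor Galr1 couples to Gi/o, and galanin inhibits insulin release.

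The genes lie apart in the genome (GENCODE M21 on GRCm38). Adra2a spans chr19:54044151-54048982 on the plus strand in 1 exon and Adrb1 spans chr19:56722199-56733113 on the plus strand. Adra2b (chr2:127363208-127367221), Adra2c (chr5:35278319-35281763) and Chrm4 (chr2:91927249-91928688) are single exons on the plus strand, and the Chrm4 model is 1440 bases long. Chrm3 (chr13:9875486-10360847) and Oxtr (chr6:112473683-112489943) are on the minus strand, and Avpr1b (chr1:131599239-131612000) is on the plus strand. No exon of any of the 9 overlapped an exon of another annotated gene, although Gm26861 runs antisense through Chrm3.

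Upstream sequences credited to RefSeq (GRCm38.p6) were at hand for 7 of the 9. Shown here are those of a gene highest in alpha cells (Oxtr), a gene high in both other groups (Chrm3), a gene without a read in transdifferentiated cells (Adrb1) and a gene without a read in any library (Adra2b). Each runs 5′ to 3′ towards the start and stops short of the gene's annotated exons, and capitals mark CpG dinucleotides.
Oxtr, chr6:112489944-112490075, minus strand: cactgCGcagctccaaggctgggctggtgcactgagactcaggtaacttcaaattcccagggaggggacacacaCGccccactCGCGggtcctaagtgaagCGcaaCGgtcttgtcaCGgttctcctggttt
Chrm3, chr13:10360848-10361053, minus strand: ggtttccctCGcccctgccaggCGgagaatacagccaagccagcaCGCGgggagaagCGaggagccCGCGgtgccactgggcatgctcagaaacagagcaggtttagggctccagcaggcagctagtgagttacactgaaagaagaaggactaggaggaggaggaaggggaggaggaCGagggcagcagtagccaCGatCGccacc
Adrb1, chr19:56721867-56722116, plus strand: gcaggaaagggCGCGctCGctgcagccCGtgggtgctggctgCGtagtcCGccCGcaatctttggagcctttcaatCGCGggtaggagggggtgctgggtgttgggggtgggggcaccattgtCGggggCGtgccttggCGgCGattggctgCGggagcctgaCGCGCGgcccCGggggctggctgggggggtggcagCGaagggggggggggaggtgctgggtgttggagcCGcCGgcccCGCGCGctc
Adra2b, chr2:127362929-127363178, plus strand: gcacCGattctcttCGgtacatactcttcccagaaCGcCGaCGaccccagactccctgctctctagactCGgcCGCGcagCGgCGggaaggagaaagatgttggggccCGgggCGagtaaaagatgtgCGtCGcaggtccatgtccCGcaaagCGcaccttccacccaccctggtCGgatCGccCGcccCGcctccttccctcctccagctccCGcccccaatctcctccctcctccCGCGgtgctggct

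The 250 bases before the RefSeq start held 12 CpG in Oxtr, 10 in Chrm3, 24 in Adrb1 and 23 in Adra2b, against a median of 6 over all RefSeq windows of that length. Adra2b, with no reads, and Adrb1, with reads in alpha cells, thus had almost the same CpG count. Adra2a held 22, Chrm4 26 and Adra2c 6. By the GENCODE models, the Adra2a window (chr19:54045009-54045258) lies inside the gene's exon, and the Adra2c window (chr5:35278316-35278565) almost wholly so. The Chrm4 window (chr2:91921939-91922188) ends well before the annotated gene. None of the 7 windows held any of 5 motifs searched on both strands: TAATTA (a homeodomain core, in 4.84% of all windows), TGCTGA (a MAF half-site, 16.1%), TGTTTAC (forkhead, 3.17%), TGACGTCA (cyclic AMP response element, 1.55%) or CAGATG (an E-box, 14.4%). A window without these letters says nothing about whether a factor binds the gene.

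Levels are given as RPKM, read numbers divided by the length of the gene and the size of the library, as the authors deposited them. Reads recovered from the steps in these values summed to 1244314 and 2167429 in the transdifferentiated libraries, to between 12912047 and 14094399 in the alpha libraries and to between 14337324 and 21396091 in the beta libraries. In a gene of 2 kb, a single read therefore came to 0.402 and 0.231 RPKM in transdifferentiated replicates 1 and 2, and to at most 0.0387 RPKM in any alpha or beta library. The sorted cells carried the markers of their labels. The summed RPKM of 8 alpha cell markers, of which Gcg made 96.1%, stood in the transdifferentiated libraries at 10.9% of the alpha mean and in the beta libraries at 0.345 to 1.07% of it. The summed RPKM of 10 beta cell markers stood at 65.1 and 68.7% of the beta mean in the transdifferentiated libraries and at 1.17 to 1.49% of it in alpha cells. The 6 delta cell markers, none of them at 0 in any group, summed to 2981 and 3115 RPKM in transdifferentiated cells, 1395 to 3221 in alpha cells and 317 to 896 in beta cells. The 3 markers of PP and epsilon cells summed to 8249 and 11440 RPKM in transdifferentiated cells, 7961 to 13030 in alpha cells and 590 to 1274 in beta cells. The 10 immune markers summed to 21.4 and 37.7 RPKM in transdifferentiated, 10.4 to 29.3 in alpha and 102 to 118 in beta libraries, with Ptprc at 0 in both transdifferentiated libraries. The 8 acinar markers varied widely within groups. They summed to 283.3 and 796.5 RPKM in transdifferentiated, 33.7 to 2291 in alpha and 103.9 to 3054 in beta libraries. In bulk RNA, fewer cells that use a gene and less RNA of it in each cell cannot be told apart. Titles carry a code that takes 1 value per cell group, whose meaning is not given, and its part cannot be told apart from the cell group.

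The receptors fell into a beta pattern (Adra2a, Chrm3, Galr1), an alpha pattern (Adrb1, Avpr1b, Oxtr), Chrm4 with its highest level in transdifferentiated cells, and Adra2b and Adra2c, which were at or near 0 throughout. Transdifferentiated cells had the beta-pattern receptors near the beta level and the vasopressin and oxytocin receptors well below the alpha level yet above the beta level. Differences were tested with limma on log2(RPKM + 0.5) over 13172 genes that reached an RPKM of 1 in at least 2 of the 8 libraries, with sex as a term, and were called at a Benjamini-Hochberg adjusted p under 0.05. Of the 9 receptors, 7 passed that filter. Some passed only through the cells where they were high (Adrb1 only through alpha cells), so their counts say little on their own. Against beta cells, 3 of the 7 tested were called higher and 0 lower in transdifferentiated cells, where 12.0% of all tested genes were called (9.10% higher and 2.90% lower). Against alpha cells, 4 were called higher and 3 lower, where 29.9% of all genes were called (23.2% higher and 6.67% lower). In alpha against beta cells, 3 were called higher and 4 lower, where 43.6% of all genes were called (16.9% higher and 26.7% lower). Those splits depend on the scaling: of the genes called, 75.8%, 77.6% and 38.8% were higher in the 3 comparisons as deposited, against 52.7%, 51.5% and 50.0% after median-ratio scaling and 55.2%, 49.9% and 50.0% after quantile normalization. No receptor difference that was called changed direction under either. In transdifferentiated against beta cells, the libraries of the 2 groups did not overlap for 4 of the 7 receptors, beside 46.3% of all tested genes. It was 7 receptors beside 53.0% of genes against alpha cells, and 6 beside 60.6% in alpha against beta cells. The median log2 difference of the 7 receptors was -0.03 against beta cells, 2.25 against alpha cells (2.25 with Adrb1 at its bound) and -1.07 in alpha against beta cells. Over all tested genes it was 0.09, 0.17 and -0.05. Without Adrb1, for which no fold against beta cells can be given in transdifferentiated cells, the receptor medians were 0.56, 2.72 and -2.17. The 7 hold opposite patterns, and 2.25 and -1.07 are the values of Chrm4, so these medians describe no common shift.

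**Figure D1:**
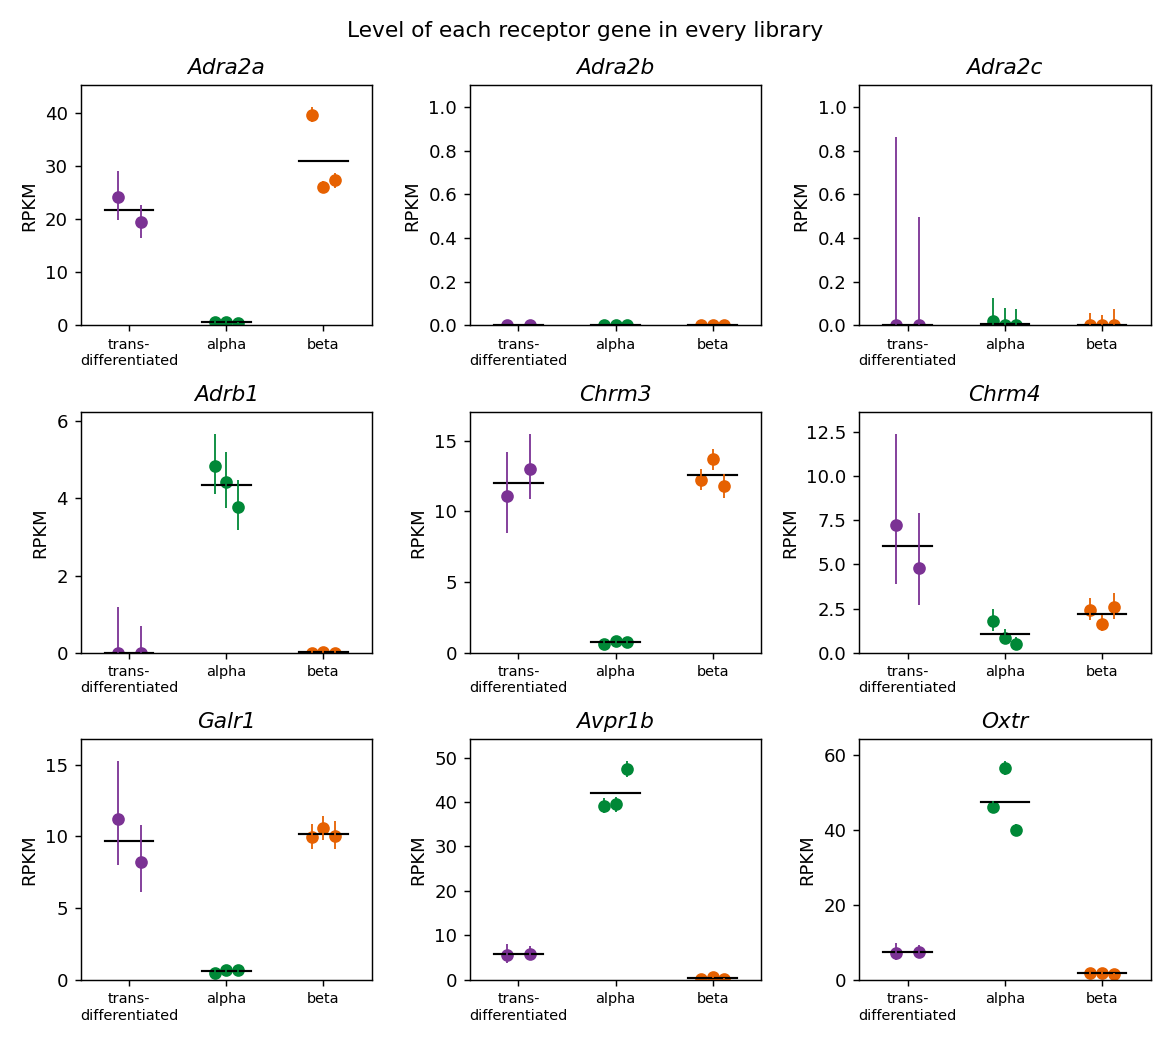
Level of each receptor gene (RPKM, linear axes that start at 0) in every library of transdifferentiated, alpha and beta cells. Points are libraries, vertical lines the exact 95% Poisson intervals of the reads behind them and horizontal lines group means. Adra2a, Chrm3 and Galr1 are high in transdifferentiated and beta cells, Avpr1b and Oxtr are highest in alpha cells and intermediate in transdifferentiated cells, and Adrb1 is seen in alpha cells.

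Adra2a was the highest of the 9 receptors in beta cells. Its level was 24.1 and 19.4 RPKM in the transdifferentiated libraries, 0.652, 0.705 and 0.411 RPKM in the alpha libraries and 39.6, 25.9 and 27.3 RPKM in the beta libraries. Both transdifferentiated libraries lay below every beta library and far above every alpha library. The means were 21.8 ± 3.31 RPKM in transdifferentiated cells (SD, n = 2), 0.589 ± 0.157 in alpha cells and 30.9 ± 7.54 in beta cells (SD, n = 3 each), so transdifferentiated cells held 70.3% of the beta mean. The log2 fold change was 4.38 ± 0.22 (SE) against alpha cells (limma adjusted p = 3.66e-05). Against beta cells it was -0.50 ± 0.22, with a 95% interval of -1.01 to 0.01 and an adjusted p of 0.163, so a lower level than in beta cells was not shown. The alpha to beta difference was -4.88 ± 0.20 (adjusted p = 5.94e-06), and the beta mean was 52.5-fold the alpha mean. The remaining alpha signal rested on 22 to 36 reads a library and stood at 1.33 to 2.28% of the beta mean, while the beta marker sum stood at 1.17 to 1.49% in the same libraries. The part of those cells in it was not tested.

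The sister subtypes were nearly absent. Adra2b, an alpha-2 receptor best known from blood vessels, had no read in any of the 8 libraries. Adra2c, an alpha-2 receptor known from sympathetic nerve endings and the adrenal medulla, had a single read, in alpha replicate 1 (0.0225 RPKM). At the depth of the transdifferentiated libraries, a count of 0 still allowed 0.255 RPKM of Adra2c (3 reads over both libraries, counting error only). Both genes stayed under the filter on low values and were not tested. Among the alpha-2 genes, then, the reads of all 3 groups came from Adra2a but for that 1 read.

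Adrb1 showed the reverse of Adra2a. It had 0 reads in both transdifferentiated libraries, 4.85, 4.43 and 3.79 RPKM in the alpha libraries (156, 148 and 133 reads) and 0, 0.0188 and 0 RPKM in the beta libraries, where beta replicate 2 had a single read. All alpha libraries lay above all others. With the floor set at 3 reads over both libraries, transdifferentiated cells had at most 0.353 RPKM, which is at least 12.3-fold lower than the alpha mean of 4.35 ± 0.535 RPKM (SD, n = 3) and allows up to 8.11% of it. Limma called the difference from alpha cells (adjusted p = 0.000192), but its fitted log2 value of -3.26 depends on the pseudocount and is no bound. Adrb1 passed the filter on low values only through the alpha libraries. Its calls against alpha cells and in alpha against beta cells are thus no support beyond the reads themselves. Alpha over beta cells, the ratio of read rates was 588, with an exact 95% counting interval of 105 to 23270 (437 reads against 1), and the test called it (adjusted p = 5.78e-05). Between transdifferentiated and beta cells no fold can be given, since both were at or under their floors. Beside that limit of 8.11%, the 8 alpha markers taken singly had mean levels in transdifferentiated cells between 10.7% (Gcg) and 34.1% (Irx2) of their alpha means, a comparison without a test. The limit is 1-sided, and a 2-sided limit, at 3.69 reads for a count of 0, would lie closer to the value of Gcg.

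Chrm3 was shared by transdifferentiated and beta cells. It stood at 11.1 and 13.0 RPKM in the transdifferentiated libraries, 0.636, 0.826 and 0.771 RPKM in the alpha libraries and 12.2, 13.7 and 11.8 RPKM in the beta libraries. The transdifferentiated and beta libraries overlapped, and the alpha libraries lay below all of them. Transdifferentiated cells held 95.8% of the beta mean (12.0 ± 1.38 RPKM, n = 2, against 12.6 ± 0.998 RPKM, n = 3, SD). The log2 fold change against beta cells was -0.04 ± 0.13 (SE) with a 95% interval of -0.34 to 0.26 (adjusted p = 0.855). Against alpha cells it was 3.31 ± 0.13 (adjusted p = 1.64e-05), and alpha against beta cells it was -3.35 ± 0.12 (adjusted p = 3.85e-06), a 16.9-fold higher mean in beta cells.

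Chrm4 was the one receptor whose mean was highest in transdifferentiated cells. It measured 7.25 and 4.81 RPKM in the transdifferentiated libraries, 1.77, 0.828 and 0.493 RPKM in the alpha libraries and 2.42, 1.62 and 2.57 RPKM in the beta libraries. Both transdifferentiated libraries lay above all others, while alpha replicate 1 lay above beta replicate 2. These values rested on 13 and 15 reads in transdifferentiated cells, with exact 95% intervals of 3.86 to 12.4 and 2.69 to 7.93 RPKM. The second interval overlapped that of the highest beta library (replicate 3, 1.92 to 3.36 RPKM), and the first lay above it. By reads, the level was 2.66-fold that in beta cells (exact 95% counting interval 1.71 to 3.98) and 5.62-fold that in alpha cells (3.45 to 8.96). The log2 fold change was 1.17 ± 0.28 (SE) against beta cells (adjusted p = 0.0396), a call lost in 12 of 16 alternatives, among them limma voom on the recovered reads (adjusted p = 0.104), with adjusted p between 0.0265 and 0.184. Leaving out either transdifferentiated library, alpha replicate 2 or 3, or any 1 beta library was enough to lose it. Against alpha cells it was 2.25 ± 0.28 (adjusted p = 0.0015, and 0.00497 with voom). The alpha to beta difference of -1.07 ± 0.26 (adjusted p = 0.0145) was lost without alpha replicate 3 (adjusted p = 0.108). Among the delta cell markers, 4 of the 5 tested were called higher in transdifferentiated than in beta cells (2 with quantile normalization, background 9.10% higher). The list summed to 2981 and 3115 RPKM against 317 to 896 RPKM. In transdifferentiated against alpha cells, 1 of the 5 was called higher and 0 lower (background 23.2% and 6.67%). With median-ratio scaling 0 were higher and 1 lower, and with quantile normalization 0 were higher and 2 lower. The delta markers thus did not follow Chrm4 in both comparisons. Of the 3 PP and epsilon cell markers, Ppy (log2 3.32, adjusted p = 0.00538) and Pyy (3.88, adjusted p = 0.00303) were also called higher than in beta cells. Against alpha cells 0 of these 3 were called (1 lower with quantile normalization). The part of either marker list in the result was not tested.

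Galr1 (chr18:82392380-82406777, minus strand, 3 exons) followed Chrm3. Its level was 11.2 and 8.19 RPKM in the transdifferentiated libraries, 0.459, 0.674 and 0.717 RPKM in the alpha libraries and 9.97, 10.6 and 10.0 RPKM in the beta libraries. The transdifferentiated libraries fell on either side of the beta libraries, and the alpha libraries lay below all others. Transdifferentiated cells held 95.2% of the beta mean, with a log2 fold change of -0.09 ± 0.18 (SE) and a 95% interval of -0.51 to 0.33 (adjusted p = 0.764). Against alpha cells it was 3.19 ± 0.18 (adjusted p = 5.94e-05), and alpha against beta cells it was -3.28 ± 0.16 (adjusted p = 1.48e-05), a 16.5-fold higher mean in beta cells. For Chrm3 and Galr1 alike, the intervals allow a moderate difference from beta cells in either direction.

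Avpr1b and Oxtr, the Gq/11-coupled peptide receptors, set transdifferentiated cells apart from both other groups. Avpr1b measured 5.59 and 5.85 RPKM in the transdifferentiated libraries, 39.1, 39.5 and 47.4 RPKM in the alpha libraries and 0.147, 0.639 and 0.225 RPKM in the beta libraries. The 3 groups did not overlap. In single comparisons of 2 groups, 46.3 to 60.6% of all tested genes did not overlap either. The means were 5.72 ± 0.181 RPKM in transdifferentiated cells (SD, n = 2), 42.0 ± 4.66 in alpha cells and 0.337 ± 0.264 in beta cells (SD, n = 3 each), which is 13.6% of the alpha mean and 17.0-fold the beta mean. The log2 fold change was -2.80 ± 0.23 (SE) against alpha cells (adjusted p = 0.000262, and 0.000625 with voom) and 2.97 ± 0.23 against beta cells (adjusted p = 0.00177, and 0.00325 with voom). Alpha against beta cells, it was 5.77 ± 0.21 (adjusted p = 4.19e-06), a 125-fold higher mean in alpha cells. Beta replicate 2 had 55 of the 79 beta reads, and its alpha marker sum was also the highest of the beta libraries, at 1.07% of the alpha mean against 0.345 and 0.455%. Avpr1b stood there at 1.52% of the alpha mean, against 0.349 and 0.537% in the other beta libraries.

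Oxtr measured 7.21 and 7.51 RPKM in the transdifferentiated libraries, 46.0, 56.4 and 39.9 RPKM in the alpha libraries and 1.87, 1.68 and 1.48 RPKM in the beta libraries. It was the highest of the 9 receptors by mean in alpha cells, and again no groups overlapped. The means were 7.36 ± 0.211 RPKM in transdifferentiated cells (SD, n = 2), 47.4 ± 8.33 in alpha cells and 1.68 ± 0.192 in beta cells (SD, n = 3 each), which is 15.5% of the alpha mean and 4.39-fold the beta mean. The log2 fold change was -2.59 ± 0.16 (SE) against alpha cells (adjusted p = 9.14e-05, and 0.000207 with voom) and 1.85 ± 0.16 against beta cells (adjusted p = 0.00267, and 0.00486 with voom). Alpha against beta cells it was 4.44 ± 0.15 (adjusted p = 3.39e-06), a 28.3-fold higher mean in alpha cells. Beta cells kept 3.13 to 3.94% of the alpha mean of Oxtr, above the 0.345 to 1.07% of the alpha marker sum in the same libraries. In transdifferentiated cells Avpr1b stood at 13.3 and 13.9% of the alpha mean and Oxtr at 15.2 and 15.8%, beside an alpha marker sum at 10.9% in both libraries and single alpha markers at 10.7% to 34.1% by their means. The part of cells of the alpha group among those sorted as transdifferentiated was not tested.

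**Figure D2:**
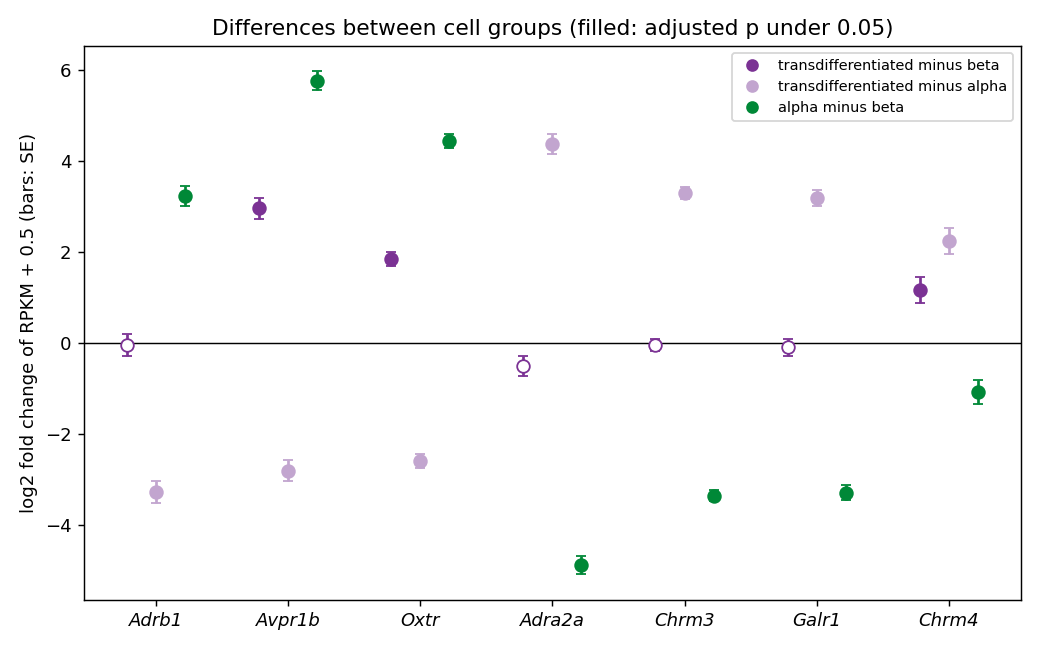
Log2 fold changes of RPKM + 0.5 for the 7 tested receptors in transdifferentiated against beta cells, transdifferentiated against alpha cells and alpha against beta cells. Bars are SE and filled points have an adjusted p under 0.05. Avpr1b and Oxtr are above 0 against beta cells and below 0 against alpha cells, while Adra2a, Chrm3 and Galr1 are above 0 against alpha cells and open against beta cells.

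**Figure D3:**
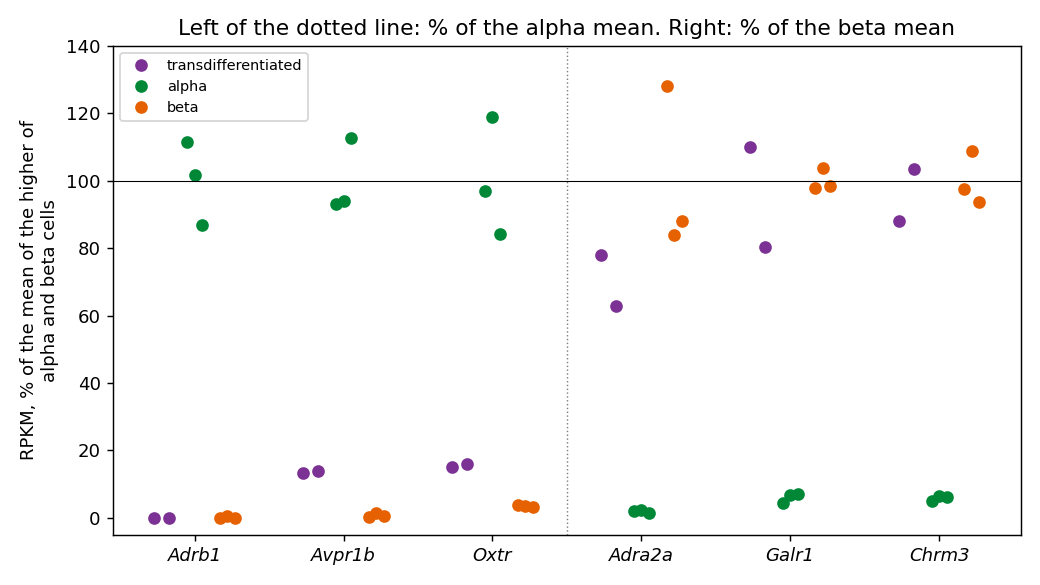
RPKM of 6 receptors in each library as a percentage of the mean of whichever of alpha and beta cells is higher, the alpha mean left of the dotted line and the beta mean right of it. Transdifferentiated libraries lie at 0% for Adrb1, at 13.3 to 15.8% for Avpr1b and Oxtr, and at 62.8 to 110% for Adra2a, Galr1 and Chrm3.

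The order of the levels within a cell group, which RPKM allows because it is per length, differed between groups. In transdifferentiated cells it ran Adra2a (21.8 RPKM), Chrm3 (12.0), Galr1 (9.70), Oxtr (7.36), Chrm4 (6.03) and Avpr1b (5.72), and each neighbour from Chrm3 down to Avpr1b had overlapping libraries with the next except Galr1 with Oxtr. In alpha cells it ran Oxtr (47.4 RPKM), Avpr1b (42.0), Adrb1 (4.35), Chrm4 (1.03), Chrm3 (0.744), Galr1 (0.617) and Adra2a (0.589), with Oxtr and Avpr1b overlapping and the last 4 overlapping. In beta cells it ran Adra2a (30.9 RPKM), Chrm3 (12.6), Galr1 (10.2), Chrm4 (2.20), Oxtr (1.68), Avpr1b (0.337) and Adrb1 (0.00625), where only Chrm4 and Oxtr overlapped as neighbours. Of the summed RPKM of the 9 receptors, Avpr1b and Oxtr together dominated in alpha cells, at 43.6 ± 6.42% and 48.8 ± 5.94% (SD, n = 3). They made up 9.19 ± 1.08% and 11.8 ± 1.36% in transdifferentiated cells (SD, n = 2), against 0.608 ± 0.506% and 2.90 ± 0.172% in beta cells. Adra2a made up 34.7 ± 2.30% in transdifferentiated, 0.606 ± 0.145% in alpha and 52.9 ± 6.14% in beta cells.

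Grouped by the G protein they are known to use, the Gi/o receptors (Adra2a, Adra2b, Adra2c, Chrm4, Galr1) summed to 42.6 and 32.4 RPKM in the transdifferentiated libraries, 2.91, 2.21 and 1.62 RPKM in the alpha libraries and 52.0, 38.1 and 39.9 RPKM in the beta libraries. The transdifferentiated and beta libraries overlapped, and the alpha libraries lay far below. The Gq/11 receptors (Chrm3, Avpr1b, Oxtr) summed to 23.9 and 26.4 RPKM in the transdifferentiated, 85.8, 96.7 and 88.0 RPKM in the alpha and 14.2, 16.0 and 13.5 RPKM in the beta libraries, with no overlap between groups. In alpha cells that sum was mostly Avpr1b and Oxtr, and in beta cells mostly Chrm3. These sums describe the members and were not tested.

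**Figure D4:**
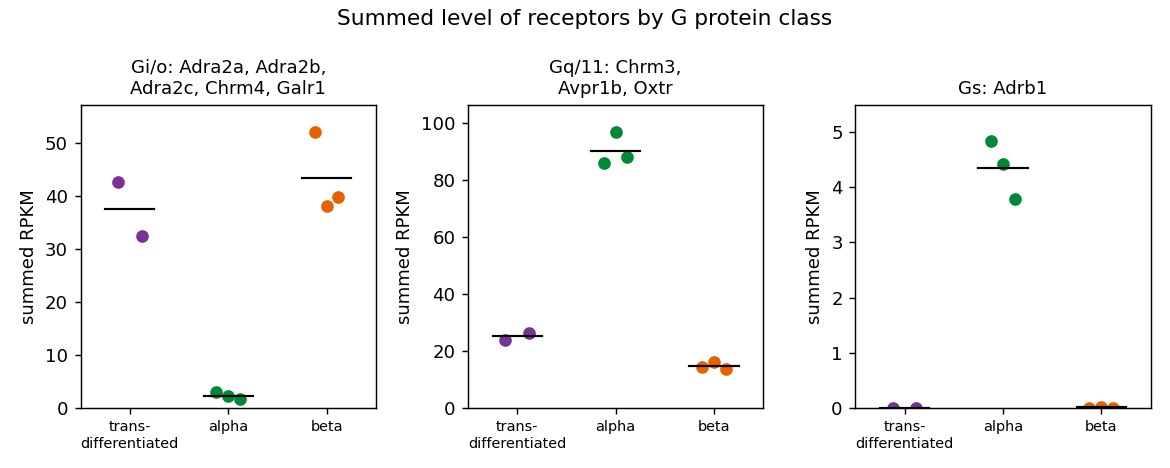
Summed RPKM of the receptors by the G protein class they are known to couple to, with 1 point per library and the group mean as a line (linear axes that start at 0). The Gi/o sum is 32.4 and 42.6 in transdifferentiated cells and below 3 in alpha cells, and the Gq/11 sum is 23.9 and 26.4 in transdifferentiated cells, between the alpha and the beta libraries.

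The alpha to beta differences had the same sign in both sexes. Adra2a differed by a log2 value of -4.56 in male and -5.16 in female libraries, Chrm3 by -3.32 and -3.40, Galr1 by -3.31 and -3.15, Chrm4 by -0.82 and -1.33. Adrb1 differed by 3.36 in male and 3.07 in female libraries, Avpr1b by 5.78 and 5.80, and Oxtr by 4.70 and 4.15. In a limma interaction fit, the largest differences between the sexes were -0.60 for Adra2a and -0.54 for Oxtr (female minus male). Only male alpha and female beta cells had 2 libraries, each a pair that shares a title number. Every other combination of cell group and sex had 1 library, so that fit cannot test whether the sexes differ. Titles of alpha and beta replicates 2 and 3 carry a letter b that the other libraries lack. Within titles with it, the alpha to beta differences were -4.69 for Adra2a, -3.34 for Chrm3, -3.17 for Galr1, -1.15 for Chrm4, 3.17 for Adrb1, 5.59 for Avpr1b and 4.53 for Oxtr. Within titles without it (1 library each) they were -5.12, -3.49, -3.45, -0.36, 3.42, 5.94 and 4.30 in the same order. Both transdifferentiated libraries lack the letter. Against the beta library without it, their log2 difference was 3.27 for Avpr1b, 1.73 for Oxtr, 1.14 for Chrm4 and -0.86 for Adra2a, and against the alpha library without it -2.67 for Avpr1b and -2.57 for Oxtr. In 1 male library against 1 and in 1 female library against 2, transdifferentiated minus beta cells gave 3.07 and 2.89 for Avpr1b and 1.96 and 1.82 for Oxtr.

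The other receptors of these families were low. Of 12 listed, 11 were in the table, Chrm5 and Adrb3 were at 0 in all libraries, and only Galr2 passed the filter. Galr2, a second galanin receptor, measured 0.327 and 0.751 RPKM in the transdifferentiated libraries, 1.17, 1.46 and 1.50 RPKM in the alpha libraries and 1.22, 1.18 and 1.25 RPKM in the beta libraries. The transdifferentiated level rested on 5 reads, and its call against alpha cells (log2 -0.91 ± 0.23 SE, adjusted p = 0.0249) was lost in 6 of 16 alternatives, among them without transdifferentiated replicate 1, alpha replicate 2 or alpha replicate 3 (adjusted p up to 0.142). Its exact counting interval against alpha cells ran from 0.138 to 1.03 around a ratio of 0.432. Alpha and beta cells did not differ in Galr2 past the threshold (0.19, adjusted p = 0.504), nor did transdifferentiated and beta cells (-0.72, adjusted p = 0.0851, called without transdifferentiated replicate 2).

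Adra1a, an alpha-1 receptor that couples to Gq/11, never reached an RPKM of 1 and was not tested. It measured 0.0987 and 0 RPKM in the transdifferentiated libraries (1 read), 0.418, 0.604 and 0.618 RPKM in the alpha libraries and 0.00658, 0.0115 and 0.00856 RPKM in the beta libraries. The ratio of read rates was 60.9 in alpha over beta cells (exact 95% counting interval 23.4 to 226, 181 reads against 4) and 0.0655 in transdifferentiated over alpha cells (0.00165 to 0.369). Adra1b (0, 19 and 3 reads in transdifferentiated, alpha and beta cells), Adra1d (0, 1 and 0), Chrm1 (0, 0 and 2), Chrm2 (1, 3 and 2), Avpr1a (0, 7 and 3) and Avpr2 (0, 1 and 0) were at the limit of detection. Avpr1b had 79, 6850 and 79 reads in the same order.

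Messages for the peptide ligands were scarce. Avp and the galanin-like peptide gene Galp had no read in any library, and Oxt had 1 read in alpha and 1 in beta cells. Gal, which encodes galanin, was at 0 and 0.648 RPKM in the transdifferentiated libraries (1 read), 2.94, 6.17 and 7.87 RPKM in the alpha libraries and 0.527, 2.03 and 0.979 RPKM in the beta libraries. Gal was higher in alpha than in beta cells by a log2 value of 2.10 ± 0.44 (SE, adjusted p = 0.00786), the reverse of Galr1, and not without alpha replicate 3 (adjusted p = 0.0614). Transdifferentiated over alpha cells, the ratio of read rates was 0.0718 with an exact interval of 0.00181 to 0.406. Limma's call there (adjusted p = 0.00368) was lost with voom on the recovered reads (adjusted p = 0.0867), and transdifferentiated and beta cells were not called (adjusted p = 0.219).

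Of the genes for making and breaking down catecholamines, 6 of 10 were tested, and alpha cells had 4 lower and 0 higher than beta cells (background 26.7% lower and 16.9% higher). Th, the rate-limiting enzyme of catecholamine synthesis, stood at 7.14 and 9.56 RPKM in the transdifferentiated libraries, 0.393, 0.441 and 0.420 RPKM in the alpha libraries and 8.41, 14.4 and 13.3 RPKM in the beta libraries. The transdifferentiated and beta libraries overlapped, and alpha libraries were lowest. Its log2 fold change was 3.25 ± 0.25 (SE) in transdifferentiated against alpha cells (adjusted p = 0.000215) and -0.48 against beta cells (adjusted p = 0.229). Alpha against beta cells, Th differed by -3.73 (adjusted p = 3.35e-05), Slc18a1, a vesicular monoamine transporter, by -1.57 and Ddc, aromatic amino acid decarboxylase, by -1.06. Against alpha cells, Th and Slc18a1 (1.32) were called higher in transdifferentiated cells, and the monoamine oxidases Maoa (-0.51) and Maob (-0.50) lower. Against beta cells, Maob was called lower (-0.79). The oxidase calls did not survive the loss of most single libraries, with adjusted p up to 0.0968 (Maoa) and 0.166 (Maob) against alpha cells and up to 0.081 (Maob) against beta cells. Dbh and Pnmt, which make noradrenaline and adrenaline, had no reads.

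Of the acetylcholine genes, 1 of 5 was tested. Ache, acetylcholinesterase, averaged 2.71 ± 0.589 RPKM in transdifferentiated cells (SD, n = 2), 3.23 ± 0.708 in alpha cells and 0.524 ± 0.178 in beta cells (SD, n = 3 each). It was higher than in beta cells in transdifferentiated cells (log2 1.63, adjusted p = 0.0131, and 0.0518 at most, without transdifferentiated replicate 1 or with quantile normalization) and in alpha cells (1.82, adjusted p = 0.000899). The choline acetyltransferase gene Chat had 0, 2 and 2 reads in transdifferentiated, alpha and beta cells, and the choline transporter gene Slc5a7 none. Of 16 nicotinic receptor subunits, 2 were tested. Chrnb2 averaged 9.96 ± 1.78 RPKM in transdifferentiated, 6.51 ± 0.674 in alpha and 10.9 ± 0.666 in beta cells, called in alpha against beta cells (-0.76, adjusted p = 0.00154) and in transdifferentiated against alpha cells (0.60, adjusted p = 0.00909). The call against alpha cells was lost under either other scaling and without transdifferentiated replicate 1 or alpha replicate 3 (adjusted p up to 0.0644). Chrnb1 was called higher in transdifferentiated than in beta cells (1.30, adjusted p = 0.0145) on 19 reads, a call lost without beta replicate 3 (adjusted p = 0.0668).

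The G protein subunits that these receptors use also differed between cell groups. All 5 Gi/o alpha subunits were tested, and 2 were higher and 3 lower in alpha than in beta cells (background 16.9% and 26.7%). Gnai1 averaged 13.2 ± 1.68 RPKM in transdifferentiated cells (SD, n = 2), 43.9 ± 5.64 in alpha cells and 4.97 ± 1.84 in beta cells (SD, n = 3 each), a log2 difference of 3.08 ± 0.28 (SE) in alpha against beta cells (adjusted p = 0.000196). Gnai2, the most abundant of them in every group, averaged 203 ± 10.3 RPKM in transdifferentiated, 83.6 ± 4.97 in alpha and 277 ± 32.7 in beta cells (-1.75 ± 0.10 in alpha against beta cells, adjusted p = 3.15e-05). Gnai3 (-1.34) and Gnaz (-0.58) were likewise lower in alpha than in beta cells. Transdifferentiated against alpha cells, Gnai2 (1.29), Gnai3 (0.70) and Gnaz (0.64) were called higher and Gnai1 lower (-1.69). These counts of 3 and 1 (background 23.2% and 6.67%) became 2 and 2 under either other scaling. Without transdifferentiated replicate 1 Gnai1 was not called there (adjusted p = 0.055), and without alpha replicate 3 Gnaz was called in neither comparison (adjusted p up to 0.0856), nor without beta replicate 3 in alpha against beta cells. Against beta cells 2 were called higher and 2 lower (background 9.10% and 2.90%), but 0 and 1 with voom.

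Gnas, the Gs alpha subunit, averaged 10.3 ± 0.543 RPKM in transdifferentiated cells (SD, n = 2), 47.1 ± 1.57 in alpha cells and 3.63 ± 0.560 in beta cells (SD, n = 3 each). The log2 differences were 1.41 ± 0.12 (SE) against beta cells (adjusted p = 0.0025) and -2.16 ± 0.12 against alpha cells (adjusted p = 6.01e-05), and 3.57 ± 0.11 in alpha against beta cells (adjusted p = 2.91e-06). Each call held under all 17 alternatives. The Gnas locus makes several overlapping transcripts, so which of them these reads came from is uncertain. Adrb1, the Gs-coupled receptor, and Gnas were both highest in alpha cells, but Gnas kept reads in transdifferentiated cells where Adrb1 had none. For Gq/11, Gnaq and Gna11 were tested. Gna11 was lower in alpha than in beta cells (-0.51, adjusted p = 0.00195), but of these 2 genes 1 was called higher and 0 lower with quantile normalization, and 1 higher and 1 lower with median-ratio scaling.

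Downstream of Gq/11, 6 of 7 phospholipase C beta and IP3 receptor genes were tested. Alpha cells had 2 higher and 1 lower than beta cells (background 16.9% and 26.7%). Itpr1, an IP3-gated calcium channel, averaged 10.6 ± 1.96 RPKM in transdifferentiated cells (SD, n = 2), 23.5 ± 0.823 in alpha cells and 3.03 ± 0.827 in beta cells (SD, n = 3 each). It was called in all 3 comparisons: -1.12 against alpha cells (adjusted p = 0.00668), 1.65 against beta cells (adjusted p = 0.00643) and 2.77 in alpha against beta cells (adjusted p = 5.07e-05). Itpr2, another IP3-gated channel, ran the other way, at 1.72 ± 0.324 RPKM in transdifferentiated, 0.219 ± 0.0590 in alpha and 1.99 ± 0.138 in beta cells, with 1.62 against alpha cells (adjusted p = 0.00214) and -1.78 in alpha against beta cells (adjusted p = 0.000535). Plcb3 was called higher in transdifferentiated cells against alpha (0.95) and beta cells (0.63, adjusted p = 0.0289), where the call against beta cells was lost in 9 of 16 alternatives, including without transdifferentiated replicate 2, alpha replicate 2 or 3, or any 1 beta library (adjusted p up to 0.101).

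Downstream of Gi/o, 2 of 4 genes of G protein-gated potassium channels were tested. Alpha cells had both at a higher level than beta cells (background 16.9% higher). Kcnj3 averaged 0.452 ± 0.0141 RPKM in transdifferentiated cells (SD, n = 2, 8 reads), 6.16 ± 0.410 in alpha cells and 0.0659 ± 0.0438 in beta cells (SD, n = 3 each). It was called lower in transdifferentiated than in alpha cells (-2.81, adjusted p = 0.000156) and higher in alpha than in beta cells (3.57, adjusted p = 1.59e-05). Kcnj6 was higher in alpha than in beta cells (1.23, adjusted p = 0.00486). Kcnj3 was thus highest in alpha cells, where the sum of the Gi/o receptors among the members was lowest. Receptors outside the member list were not in that sum, so it does not give the Gi/o receptor level of the cells.

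Of the kinases and arrestins that silence receptors, 5 of the 8 in the table were tested. Grk5, a receptor kinase, averaged 14.7 ± 1.44 RPKM in transdifferentiated cells (SD, n = 2), 4.81 ± 0.642 in alpha cells and 12.4 ± 0.917 in beta cells (SD, n = 3 each), called against alpha cells (1.51, adjusted p = 0.000378) and in alpha against beta cells (-1.27, adjusted p = 0.000285). Transdifferentiated against alpha cells, 4 of the 5 were called higher (background 23.2%), but 2 with median-ratio scaling, quantile normalization or voom. Against beta cells only Arrb2, an arrestin, was called (0.77, adjusted p = 0.0131, background 9.10% higher). It was not called without transdifferentiated replicate 1 or beta replicate 3 (adjusted p up to 0.0665). Of 18 RGS genes, which speed the shut-off of G proteins, 10 were tested. Transdifferentiated against alpha cells, 4 were called higher and 2 lower (background 23.2% and 6.67%). Rgs11 averaged 43.1 ± 3.38 RPKM in transdifferentiated cells, 7.92 ± 2.15 in alpha and 16.3 ± 6.73 in beta cells, a log2 difference of 2.44 ± 0.38 (SE) against alpha cells (adjusted p = 0.00373) and of 1.43 against beta cells that missed the threshold (adjusted p = 0.0521) but passed it without alpha replicate 1. Rgs4 was lower in transdifferentiated than in alpha cells (-1.60), a call lost without transdifferentiated replicate 1 or alpha replicate 3 (adjusted p up to 0.0803). Alpha against beta cells, 3 of the 10 tested RGS genes were called lower and 1 higher, near the background of 26.7% lower and 16.9% higher. Rgs3 was lower by the most (-1.47, adjusted p = 0.000488) and kept its call in all 16 alternatives. The other calls were Rgs10 (-0.78, adjusted p = 0.02), Rgs16 (-0.72, adjusted p = 0.0477) and Rgs4 (1.21, adjusted p = 0.0176). They were lost in 5, 9 and 2 alternatives, among them without alpha replicate 2 for each (adjusted p up to 0.118, 0.264 and 0.134). Rgs10 was also lost without beta replicate 2 or 3, Rgs16 without either transdifferentiated library, alpha replicate 1 or beta replicate 2 or 3, and Rgs4 without alpha replicate 3. Rgs9 was the 1 called against beta cells (0.98, adjusted p = 0.0304, background 9.10% higher). That call was lost without transdifferentiated replicate 1, alpha replicate 2, beta replicate 1 or beta replicate 3 (adjusted p up to 0.122). With members and cell type markers left out, 11 of the 13 listed genes called in transdifferentiated against beta cells lost the call in at least 1 alternative. It was 16 of 28 against alpha cells and 10 of 27 in alpha against beta cells, and none reversed.

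**Figure D5:**
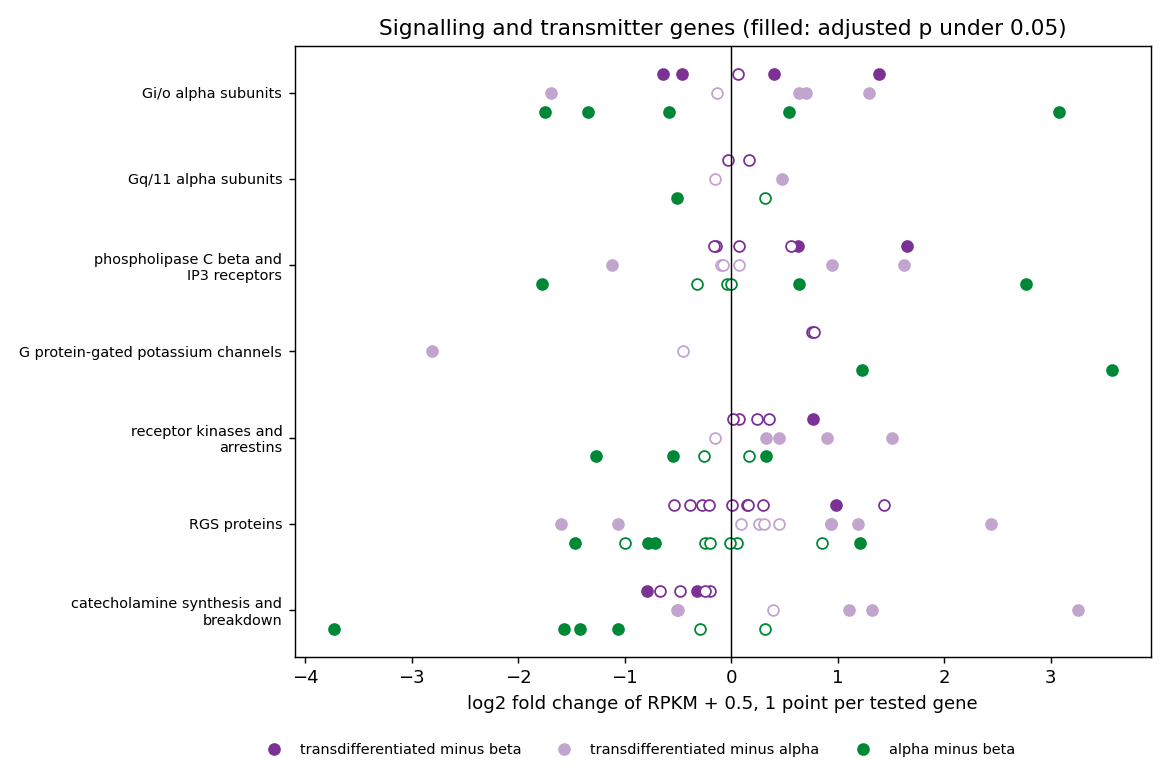
Log2 fold changes of RPKM + 0.5 for every tested gene of 7 lists, transdifferentiated against beta cells, transdifferentiated against alpha cells and alpha against beta cells. Filled points have an adjusted p under 0.05. The Gi/o subunits spread from -1.75 to 3.08 in alpha against beta cells, both potassium channel genes lie above 0 there, and Th lies at -3.73.

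For each tested receptor the genes nearest in pattern were found by the root mean square difference of centred log2 values over the 8 libraries, as a description. The nearest to Adra2a were Iapp (0.22), which encodes the peptide amylin, Hadh (0.23) and Prlr (0.25), the prolactin receptor, against a median of 2.24 over all genes. Chrm3 lay nearest to Entpd3 (0.13), Jakmip1 (0.16) and Cabp1 (0.17), and Galr1 to Papss2 (0.15), Entpd3 (0.17) and Cabp1 (0.18), so that Entpd3 and Cabp1 were near both. Avpr1b lay nearest to Edn3 (0.14), which encodes endothelin 3, Peg10 (0.22) and Irx1 (0.25), an alpha cell transcription factor. Oxtr lay nearest to Mamld1 (0.17), Pou3f4 (0.18), a transcription factor, and Sstr2 (0.23), a somatostatin receptor. Adrb1 had Tmsb15l (0.29), Kcnj3 (0.32) and C8b (0.34) nearest. Chrm4 had Gm19426 (0.29), Cntrob (0.31) and Wnt5b (0.32) nearest, against a median of 0.90 over all genes. With 8 libraries in 3 groups, such nearness mostly reflects the 3 group means.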

How the data were processed

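RNA was sequenced in 8 libraries of sorted islet cells. Per the submitters' processing notes, STAR 2.5, featureCounts and edgeR 3.14.0 were used with mouse build GRCm38.p4. The authors deposited 1 table of RPKM values, and neither annotation nor strand setting is given in the sources used here. The TruSeq RNA kit v2, per the labels' protocols, keeps no strand, so antisense reads cannot be separated. Of 46959 entries, 4 with repeated names were left out, and no column was left out. Cell groups and sexes came from the labels.

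With GENCODE M21 exon lengths, 78.5% of the 25349 expressed genes matched by symbol gave whole numbers of reads in every library (tolerance 0.01). For the others a length was solved from the values, and reads were had for 26785 genes. Intervals and floors (3 reads) are exact Poisson or binomial at 95% and cover counting error only.

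Tests used limma 3.58.1 (R 4.3.3; lmFit and trended eBayes) on log2(RPKM + 0.5). All 8 libraries entered 1 model of cell group plus sex, and 13172 genes that reached 1 RPKM in 2 or more libraries were kept. It was checked on simulated data. It gives all libraries 1 spread per gene, although the transdifferentiated libraries were shallower, so limma voom values are given for low genes. Log2 fold changes understate changes of low genes. Replicate pairs of a group differed by 3.31 to 32.0 times counting noise (chi-square per degree of freedom), those that share a title number by 28.9 and 30.5. The 3.31 is the shallow transdifferentiated pair. This measure rises with depth, so it cannot compare the spread of that pair with the others. Alternatives changed the pseudocount (0.1, 1), the filter (none, mean of 5), the scaling, the terms, the tool or the libraries. The members and gene lists were chosen with earlier results of these data known. Every member is named, and of other lists up to 4 called genes with the largest fold changes in a comparison, with each gene above 0 in the lists of related receptors and ligands. Some genes of these lists are not reported here.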

Additional observations from a re-analysis of the deposited data

How the results depend on the processing

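No paired analysis was possible because the labels give no replicate number that is shared between cell groups. Over 21 differences of the receptors between cell groups and 17 alternatives, 338 of 351 values kept their side of the threshold and 13 lost the call. No called difference changed direction, but 3 that were not called did in transdifferentiated against beta cells: their log2 values ran from -0.10 to 2.85 for Adrb1, -0.17 to 0.04 for Chrm3 and -0.34 to 0.21 for Galr1. Chrm4 made up all 13, with 12 against beta cells in transdifferentiated cells and 1 in alpha cells. Of the receptors called, 2 to 3 remained by count in transdifferentiated against beta cells, 5 to 7 in transdifferentiated against alpha cells and 5 to 7 in alpha against beta cells, where the count of 5 came from a mean RPKM of at least 5, which only 5 receptors met. Depth limits the low receptors: in transdifferentiated cells a count of 0, at 3 reads over both libraries, still allowed 0.255 RPKM of Adra2c and 0.353 RPKM of Adrb1.

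The counts of all genes moved more. Transdifferentiated against beta cells, 1580 genes were called, against 877 with no filter, 863 with a mean RPKM of at least 5, 769 with voom, and 235 (without beta replicate 3) to 1737 (without transdifferentiated replicate 2) when 1 library was left out. It was 751 without transdifferentiated replicate 1, 856 and 958 without alpha replicates 2 and 3, and 503 and 791 without beta replicates 1 and 2. Transdifferentiated against alpha cells, 3932 genes became 2548 with voom and 2433 (without alpha replicate 3) to 3820 when 1 library was left out. Alpha against beta cells, 5743 became 3110 (without alpha replicate 3) to 6645, and 3421 without beta replicate 3. The share of called genes that were higher was 75.8% in transdifferentiated against beta cells, 52.7% with median-ratio scaling, 55.2% with quantile normalization and 87.3% with voom. Against alpha cells it was 77.6%, 51.5% and 49.9% under the same scalings in that order, and in alpha against beta cells 38.8%, 50.0% and 50.0%. The median log2 difference over all genes in transdifferentiated against alpha cells moved from 0.17 to -0.04 and -0.05 under these scalings. The cause of these shifts was not tested.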
